A study of Danio rerio with 48 samples.

Results

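The genes described here encode proteins of the U1 and U2 small nuclear ribonucleoproteins (snRNPs), the 2 particles that mark the ends of an intron before it is removed. The 10 genes were fixed by name and matched by symbol to the Ensembl gene IDs of the expression tables, and all 10 were found among 34707 IDs. The U1-specific proteins were snrnp70 (ENSDARG00000077126), snrpa (ENSDARG00000018890) and snrpc (ENSDARG00000009871). The U2-specific proteins were snrpa1 (ENSDARG00000024651) and snrpb2 (ENSDARG00000039424). The SF3A subunits were sf3a1 (ENSDARG00000041887), sf3a2 (ENSDARG00000021107) and sf3a3 (ENSDARG00000100114), and the SF3B subunits were sf3b1 (ENSDARG00000056138) and sf3b2 (ENSDARG00000018049). All 10 passed the filter on low counts in every comparison.

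Transcript levels were measured by RNA-Seq in 33 pools of whole zebrafish larvae of the TAB-5 background at 7 days post fertilization (dpf), in 11 groups of 3 libraries. Larvae were homozygous for 1 of 7 mutations in the SMN complex, namely smn1 fh229, gemin2 hg108, gemin3 hg105, gemin4 hg109, gemin5 hg80, gemin6 hg110 or gemin7 hg111, or were wild-type larvae from the same kind of cross. The smn1, gemin3 and gemin5 mutants, which the study names regeneration mutants, each had 3 wild-type libraries of their own family. The gemin2, gemin4, gemin6 and gemin7 mutants, the non-regeneration mutants, shared 3 wild-type libraries, of which 1 came from the gemin4 family, 1 from the gemin6 family and 1 from the gemin7 family, so that gemin2 had no control of its own family. Every group, wild type included, had spent 2 h in 10 µM copper sulfate at 5 days of age, a treatment that kills lateral line hair cells, and had lost a piece of caudal fin for genotyping. Larvae of 1 genotype from a single pair of heterozygous parents were pooled. No source used here says whether the 3 libraries of a group came from separate crosses, so the p-values measure the spread between these libraries, which may be technical. In pools of whole larvae, fewer cells of a type and less RNA per cell cannot be told apart.

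The U1 particle pairs with the start of an intron and the U2 particle with the branch point near its end. Each is built on 1 small nuclear RNA, onto which the SMN complex loads a ring of Sm proteins in the cytoplasm. The particle-specific proteins join the same RNA: snrnp70 and snrpa bind stem loops of the U1 RNA and snrpc steadies the pairing with the splice site, while snrpa1 and snrpb2, as known from the human particle, bind a stem loop of the U2 RNA as a pair. The SF3A and SF3B complexes complete the U2 particle, and sf3b1 clamps the branch point. The comparison of each mutant with its control asks whether genes for proteins that assemble downstream of the SMN complex change in level when the complex is mutated.

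The summed expected read counts ran from 30045993 to 88871247 per library, with a median of 36496510, and the gemin3 libraries, which were sequenced in 150-base pairs on another instrument, had 61452820 or more. The targeted gene was lower in all 3 mutant libraries than in every control library for 4 mutants (gemin2, gemin3, whose gene is named ddx20 in the annotation, gemin5 and gemin7). It overlapped its control for smn1, gemin4 and gemin6, so the level of those 3 transcripts does not check the label. Defining genes of muscle, liver, exocrine pancreas, skin, lens, retina, blood and nervous system were detected in every library, as the label of whole fish requires.

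In wild-type larvae the 10 genes spanned a wide range of levels, with sf3b1 at the top and snrpb2 at the bottom. TPM, the abundance of a transcript scaled for length and library size, had a median over the 12 wild-type libraries of 278 for sf3b1, the largest SF3B subunit, with a range of 193 to 363. The next gene in order was snrnp70, with a median of 81.3 TPM and a range of 59.6 to 94.4, which did not overlap that of sf3b1. All members were among the better detected genes: sf3b1 stood at percentile 98.7 and snrpb2 at percentile 74.4 of 29624 detected genes by mean wild-type TPM.

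Behind these came 7 genes whose wild-type ranges overlapped, so that their order is not fixed by these data. Their medians were 37.8 TPM for sf3b2, 35.5 for sf3a2, 34.6 for sf3a1, 28.5 for snrpa1, 27.7 for snrpa, 23.5 for sf3a3 and 22.0 for snrpc. The lowest gene, snrpb2, had a median of 11.98 TPM and a range of 6.88 to 15.3, below every wild-type value of snrpc. The genes for the pair of proteins that bind the U2 stem loop, snrpa1 and snrpb2, therefore stood apart in transcript level, with no overlap between 22.5 to 43.5 TPM for the first and the range just given for the second.

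**Figure D1:**
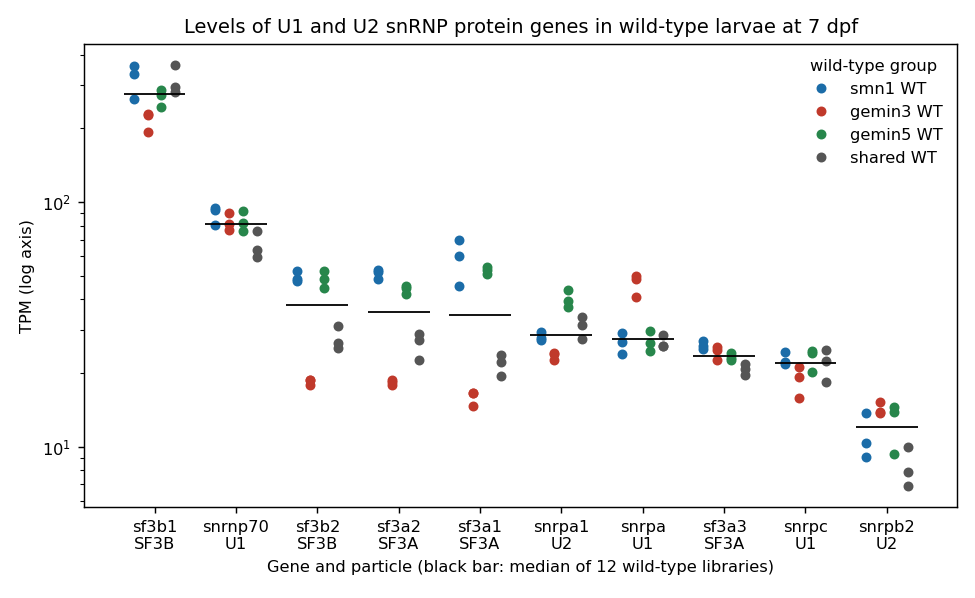
TPM of the 10 genes in the 12 wild-type libraries, on a log axis; each point is a library, coloured by wild-type group, and the bar is the median of the 12. The sf3b1 points sit between 193 and 363 TPM, above all others. For sf3a1, sf3a2 and sf3b2 the smn1 and gemin5 wild types lie above the gemin3 and shared wild types. The smn1 and gemin5 points overlap for sf3a1 and sf3b2.

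The wild-type groups themselves stood apart for several members, by the widest ratio for sf3a1, sf3a2 and sf3b2. Counts scaled to library size (CPM), with TMM factors over all 33 libraries, were 80.0 to 103 for sf3a1 in the wild types of the smn1 family and 85.5 to 97.8 in those of the gemin5 family, against 33.5 to 38.4 in the gemin3 family and 40.2 to 44.6 in the shared control. For sf3a2 the same ranges were 30.0 to 33.05 and 27.9 to 29.8 CPM, against 12.8 to 13.4 and 15.3 to 18.9. The highest of the 4 wild-type group means was 2.53 times the lowest for sf3a1, 2.43 times for sf3a2 and 2.22 times for sf3b2. That ratio was 1.16 for snrpc, 1.25 for sf3b1 and 1.32 for sf3a3, and lay between 1.51 and 1.87 for the other 4 members. For snrpa1 the wild types of the gemin5 family (24.5 to 26.0 CPM) lay above all others (15.4 to 20.3). The gemin3 wild types lay above all others for snrnp70 (131.7 to 168.9 against 90.7 to 112.1 CPM), snrpa, snrpb2 and sf3a3. For snrpb2 the gap was narrow, with 9.87 CPM in the lowest gemin3 wild type and 9.82 in the highest of the gemin5 family. These differences were not tested.

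The order of the SF3A subunits changed with the family as a result. In the smn1 and gemin5 wild types every library had more sf3a1 than sf3a3 (45.5 to 69.9 and 50.7 to 54.1 TPM against 25.1 to 26.9 and 22.6 to 24.0), whereas in the gemin3 wild types every library had less (14.6 to 16.5 against 22.5 to 25.4). Family, sequencing run and preparation cannot be told apart in these libraries. A mutant is for this reason read here only against its own control, and the gemin2 mutants, which have no control of their own family, with that limit.

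Of the 10 genes, 3 rose in at least 1 mutant and none fell: snrpa1, which encodes a U2-specific protein, and the SF3A genes sf3a2 and sf3a3. By edgeR's quasi-likelihood test, with p-values adjusted over all genes tested and called below 0.05, 3 members were called in gemin5 mutants (0.593% of 22601 genes were called higher), 2 in gemin2 mutants (2.28% of 23153) and 1 in gemin3 mutants (0.57% of 24229). None was called in smn1 mutants (0.0746% of 22797), where 4 members had an unadjusted p below 0.05 (5.93% of all genes) and DESeq2 called 2 (0.395% of all genes higher). No member was called in gemin4 mutants (0.013% of 23065, 3 members and 5.68% of genes at an unadjusted p below 0.05), gemin6 mutants (0% of 23182, 0 members and 3.69% of genes) or gemin7 mutants (0% of 23195, 1 member and 8.23% of genes), and DESeq2 called none in these 3 mutants (0.231%, 0.0382% and 0.11% of genes higher).

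In the 3 families with their own wild types, libraries of the same number deviated together, a pairing that the edgeR calls above did not use. In gemin3 and gemin5, libraries numbered 1 and 2 also deviated together across numbers, less closely. A test with the replicate number as a block called 2 members higher in smn1 mutants (0.847% of all genes), 1 in gemin3 mutants (1.04%) and 4 in gemin5 mutants (4.41%). Across the 10 genes the median log2 fold change (log2FC) was 0.16 in smn1, 0.10 in gemin3, 0.11 in gemin5, 0.15 in gemin2, 0.02 in gemin4, 0.12 in gemin6 and 0.02 in gemin7 mutants, beside medians over all genes tested of -0.01 to 0.01. In CPM, the 3 mutant libraries all lay above the 3 controls for 4 members in smn1 mutants (5.4% of all genes), 4 in gemin3 (10.4%) and 4 in gemin5 (9.27%). The count was 3 in gemin2 (14.3%), 3 in gemin4 (5.92%), 3 in gemin6 (4.57%) and 1 in gemin7 mutants (6.31%), where 1 member also lay below (7.5%). The last 4 comparisons share their control libraries.

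**Figure D2:**
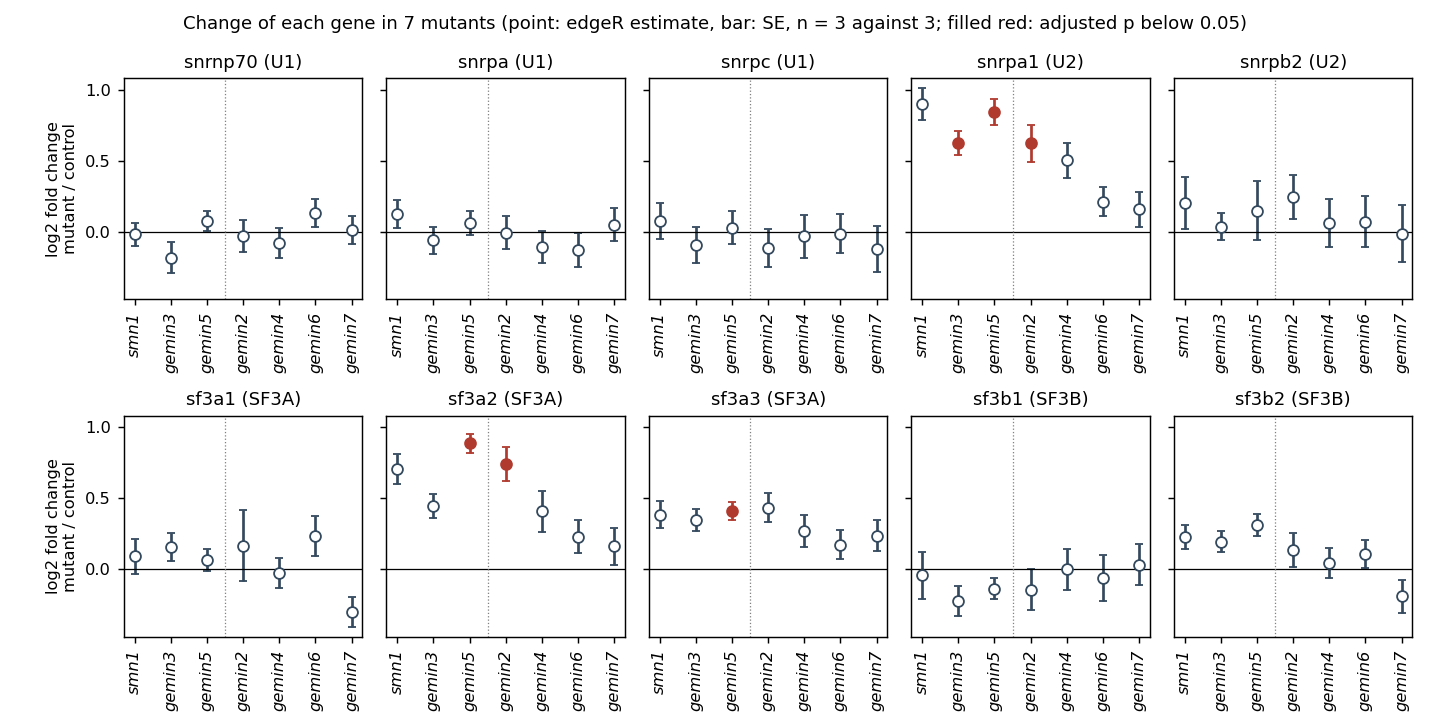
Log2 fold change of each gene (mutant over control) in the 7 mutants, with 1 panel a gene; the point is the edgeR estimate from 3 against 3 libraries, the bar its standard error, and filled red points have an adjusted p below 0.05. The dotted line parts regeneration from non-regeneration mutants. The called points are 3 for snrpa1, 2 for sf3a2 and 1 for sf3a3, while all points of the U1 genes lie between -0.18 and 0.13.

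The gene for the U2-specific protein snrpa1 was called in 3 mutants by edgeR, against 2 for sf3a2, and DESeq2 called both genes in 4. In gemin5 mutants its 3 libraries held 43.5, 50.3 and 40.7 CPM against 24.6, 26.0 and 24.5 in the wild types, a log2FC of 0.84 ± 0.09 (SE, adjusted p = 0.0124 by edgeR). In gemin3 mutants they held 23.9, 24.2 and 27.0 CPM against 15.4, 16.7 and 16.3 (log2FC 0.62 ± 0.08, adjusted p = 0.0193). In gemin2 mutants they held 27.2, 26.8 and 33.03 CPM against 20.3, 18.4 and 17.8 in the shared control (log2FC 0.62 ± 0.13, adjusted p = 0.0327). The groups did not overlap in any of these, and the gene was 1.54 to 1.79 times as high in the mutants. DESeq2 gave adjusted p of 9.16e-10 in gemin5, 1.45e-07 in gemin3 and 0.0014 in gemin2 mutants.

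The largest estimate for snrpa1 was in smn1 mutants, at 27.2, 32.0 and 34.5 CPM against 17.1, 16.8 and 16.3, which is 1.86-fold. Here the log2FC of 0.90 ± 0.11 had an adjusted p of 0.0563 by edgeR, and 0.00452 with the replicate block. The adjusted p was 8.87e-08 by DESeq2 and 9.63e-06 in the edgeR fit of all 33 libraries. In gemin4 mutants the gene stood at 26.2, 24.2 and 29.2 CPM against the shared control (log2FC 0.50 ± 0.12, unadjusted p = 0.00268 by edgeR, adjusted p = 0.496). The fit of all 33 libraries gave an adjusted p of 0.0314 for that difference, and against the single wild-type library of the gemin4 family, with no test, the log2FC was 0.37. In gemin6 mutants the values were 21.4, 21.5 and 23.0 CPM, just above the highest shared control at 20.3. In TPM the lowest gemin6 library, at 33.3, lay below the highest shared control, at 33.8. The gemin7 values of 20.8, 18.9 and 23.8 CPM overlapped the control. The estimate of snrpa1 was above 0 in all 7 mutants, from 0.16 to 0.90.

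These calls of snrpa1 were lost when some single libraries were left out, although the estimates stayed above 0. With 1 library left out the log2FC was 0.75 to 0.90 in gemin5 and 0.56 to 0.65 in gemin3 mutants. It was 0.50 to 0.68 in gemin2 and 0.82 to 0.99 in smn1 mutants. Without wild-type replicate 1 of the gemin5 family the adjusted p was 0.0987, and without its replicate 2 it was 0.0874. In gemin3 mutants the call was lost without any 1 of mutant replicates 1, 2 and 3 or wild-type replicates 1 and 2 (adjusted p 0.0616 to 0.115), and in gemin2 mutants without any 1 of the 6 libraries (adjusted p 0.0566 to 0.0993). In smn1 mutants, leaving out mutant replicate 1 brought the adjusted p to 0.0248, and leaving out other libraries raised it to as much as 0.306 by edgeR.

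Within SF3A, which ties the U2 RNA to SF3B, sf3a2 changed most. In gemin5 mutants its libraries held 52.1, 52.6 and 54.6 CPM against 28.7, 27.9 and 29.8, a log2FC of 0.88 ± 0.07 (adjusted p = 0.00265 by edgeR), and the call stood without any 1 of the 6 libraries (adjusted p 0.00699 to 0.033). In gemin2 mutants they held 28.1, 29.3 and 30.1 CPM against 15.3, 18.2 and 18.9 in the shared control (log2FC 0.74 ± 0.12, adjusted p = 0.0135), which became 0.0728 without gemin2 mutant replicate 2. Mutants and controls were well apart in both comparisons. The gemin2 mutants stood within the range of the wild types of the smn1 and gemin5 families, and no gemin2 wild type is among the libraries analysed here.

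In smn1 mutants sf3a2 stood at 47.1, 49.1 and 58.2 CPM against 31.8, 30.0 and 33.05 (log2FC 0.70 ± 0.11, adjusted p = 0.105, and 0.00452 with the replicate block). In gemin3 mutants it stood at 18.7, 18.3 and 16.4 CPM against 12.9, 12.8 and 13.4 (log2FC 0.44 ± 0.08, adjusted p = 0.0688, and 0.0215 to 0.397 by edgeR with 1 library left out). The groups did not overlap in either, and DESeq2 called both (adjusted p 3.58e-05 and 0.00137). In gemin4 mutants the libraries held 22.2, 20.2 and 26.6 CPM (log2FC 0.41 ± 0.14, unadjusted p = 0.0212, adjusted p = 0.842 by edgeR). All lay above the shared control in CPM, while in TPM the lowest, at 28.65, lay below the highest shared control, at 28.88. The gemin6 values of 20.0, 21.1 and 20.8 CPM also lay above the shared control, and the gemin7 values of 19.0, 17.6 and 22.2 CPM overlapped it.

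The third SF3A gene, sf3a3, was the only member whose mutant libraries lay above all control libraries in all 7 mutants in CPM. The gap was narrow in gemin6 mutants, and the share of all genes with such a separation in all 7 is not given. In TPM the lowest sf3a3 libraries of the gemin4, gemin6 and gemin7 mutants lay below the highest shared control. The gene had log2FC between 0.17 and 0.43. In gemin5 mutants it stood at 47.4, 48.7 and 46.7 CPM against 36.2, 35.6 and 35.8 (log2FC 0.41 ± 0.06, adjusted p = 0.038 by edgeR), a call that was lost without any 1 of the 6 libraries (adjusted p 0.0808 to 0.2). In gemin2 mutants it stood at 44.4, 42.8 and 45.3 CPM against 31.4, 32.5 and 34.2 in the shared control (log2FC 0.43 ± 0.10, adjusted p = 0.0508), and DESeq2 called it (0.00613). The values of sf3a3 in these comparisons were 1.33 and 1.35 times those of the controls.

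In smn1 mutants sf3a3 was at 45.2, 46.9 and 54.4 CPM against 38.4, 36.5 and 37.4 (log2FC 0.38 ± 0.10, adjusted p = 0.448, and 0.0528 with the replicate block). In gemin3 mutants it was at 53.4, 57.2 and 54.8 CPM against 43.5, 45.6 and 40.2 (log2FC 0.35 ± 0.08, adjusted p = 0.107, and 0.0508 with the block), and in gemin4 mutants at 37.7, 36.8 and 42.7 CPM (log2FC 0.27 ± 0.11, adjusted p = 0.867). None of these 3 passed the edgeR test of 6 libraries. DESeq2 called sf3a3 in gemin3 mutants (adjusted p = 0.00775), not in smn1 (0.141) or gemin4 mutants. The edgeR fit of all 33 libraries called it in smn1 (0.0222) and gemin3 mutants (0.0305), not in gemin4 mutants (0.326). The remaining estimates were 0.17 in gemin6 and 0.23 in gemin7 mutants. Since 4 of the 7 comparisons use the same 3 control libraries, the 7 separations in CPM are not 7 independent observations.

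**Figure D3:**
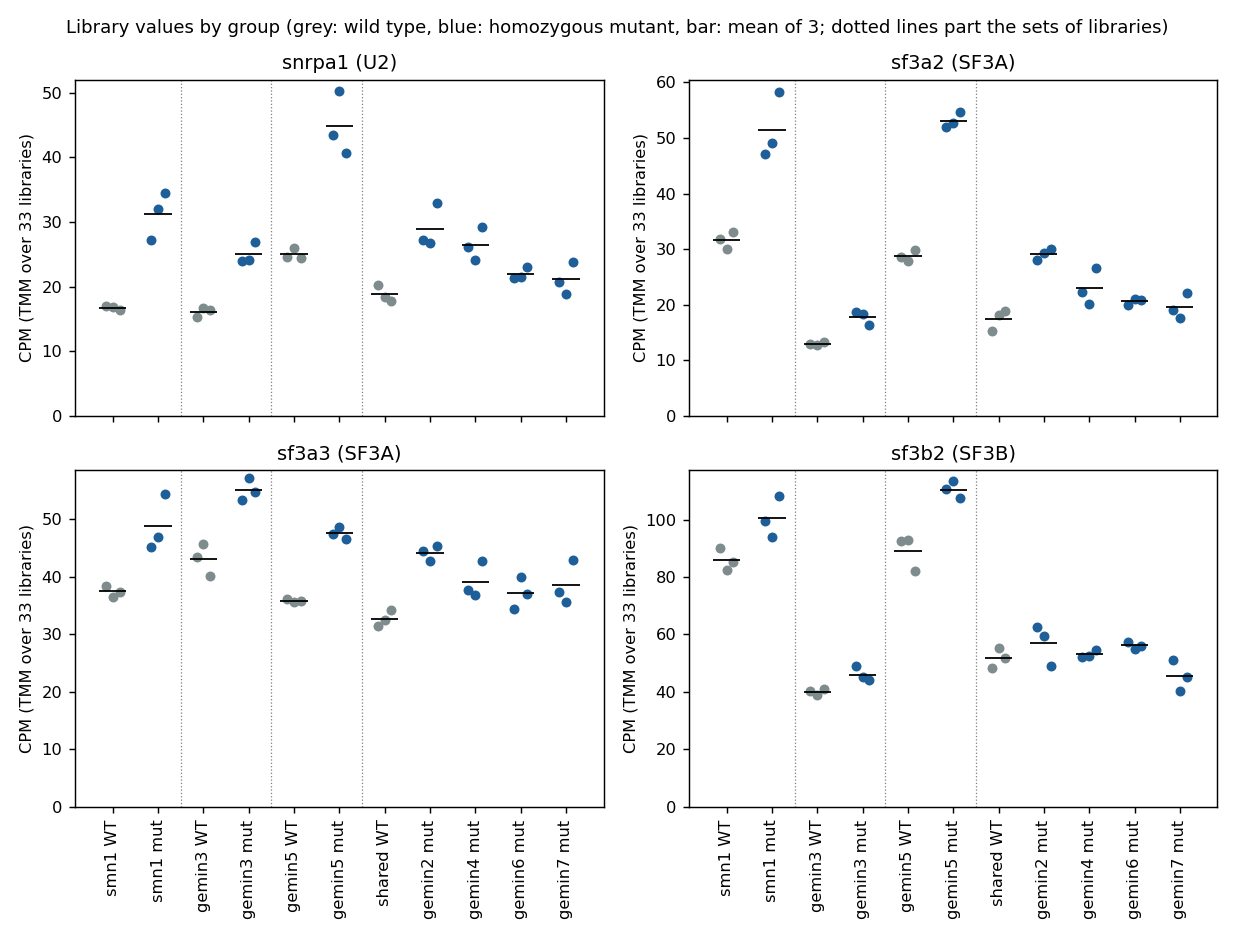
CPM of snrpa1, sf3a2, sf3a3 and sf3b2 in all 33 libraries, by group; grey points are wild-type and blue points mutant libraries, the bar is the mean of 3, and dotted lines part the libraries that are compared with each other. In the gemin5 set the 3 mutant points of snrpa1 lie between 40.7 and 50.3 CPM above wild-type points between 24.5 and 26.0, and the wild-type levels of sf3a2 and sf3b2 differ between sets.

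The SF3B gene sf3b2, whose protein lies next to the branch point, gave smaller differences of the same sign in the regeneration mutants. It stood at 110.5, 113.4 and 107.3 CPM in gemin5 mutants against 92.5, 92.7 and 82.1 in their wild types (log2FC 0.31 ± 0.08, adjusted p = 0.138 by edgeR, and 0.00878 with the replicate block). There the adjusted p was 0.0401 by DESeq2 and 0.113 in the edgeR fit of all 33 libraries. The estimates were 0.23 ± 0.09 in smn1 mutants (adjusted p = 0.822) and 0.19 ± 0.07 in gemin3 mutants (adjusted p = 0.37). All mutant libraries were above all controls in these 3 comparisons. In the non-regeneration mutants sf3b2 overlapped the control throughout, with estimates from -0.19 in gemin7 to 0.13 in gemin2 mutants.

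The first SF3A gene, sf3a1, passed the test in no mutant, unlike its partners sf3a2 and sf3a3, and whether it differed from them was not tested. Its estimates ran from -0.30 to 0.23, and the largest in size was in gemin7 mutants, at 36.9, 32.2 and 33.8 CPM against 41.4, 44.6 and 40.2 in the shared control (log2FC -0.30 ± 0.10, unadjusted p = 0.0176, adjusted p = 0.567 by edgeR). The gemin2 mutant libraries of sf3a1 were far apart, at 67.5, 45.4 and 29.3 CPM, with the shared control inside their range. RSEM had to divide some reads among genes for sf3a1 alone of the 10 members, and the posterior SD was at most 0.117% of its count.

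The 3 U1 genes, together with snrpb2 and sf3b1, passed the test in no mutant, and no pair among them had an unadjusted p below 0.05 in the test without a block. For snrnp70 the log2FC lay between -0.18 and 0.13, for snrpa between -0.13 and 0.12, and for snrpc between -0.12 and 0.08, with standard errors of 0.07 to 0.16. For snrpb2, the partner of snrpa1 on the U2 RNA, the estimates were -0.02 to 0.24 with standard errors of 0.10 to 0.21, and its libraries held as few as 151 counts. For sf3b1 they were -0.22 to 0.03, and 6 of 7 were below 0. Mutant and control libraries overlapped in all 35 of these comparisons.

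With the replicate block, 3 of these pairs had an unadjusted p below 0.05, all with lower levels in the mutant and none past the adjusted threshold. In gemin5 mutants sf3b1 was at 550.7, 581.7 and 618.7 CPM against 616.3, 633.0 and 678.5 in the wild types of the same numbers (blocked log2FC -0.14, unadjusted p = 0.0138, adjusted p = 0.107 by edgeR). In gemin3 mutants it was at 535.4, 524.9 and 555.1 CPM against 627.2, 549.1 and 699.5 (blocked log2FC -0.22, unadjusted p = 0.0303, adjusted p = 0.24). Each mutant library of sf3b1 lay below the wild-type library of its number in both families, although the groups overlapped. In gemin3 mutants snrnp70 was at 124.7, 130.4 and 140.3 CPM against 131.7, 145.3 and 168.9 (blocked log2FC -0.18, unadjusted p = 0.0386, adjusted p = 0.263). The block gave 6 members in gemin3 mutants (16.9% of all genes) and 5 in gemin5 mutants (22.3%) at an unadjusted p below 0.05.

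Whether the changes differed among the mutants was tested in 1 fit of all 33 libraries. The test that the 7 log2FC of a gene are equal was passed by snrpa1 (adjusted p = 0.00312 by edgeR) and sf3a2 (adjusted p = 0.000905), and by 10.8% of 24535 genes overall. Both calls were lost when replicate 1 of every group was left out (adjusted p 0.181 and 0.102) or replicate 2 (0.266 and 0.235), and that of sf3a2 also without the gemin2 mutants (0.0847). For sf3b2 the adjusted p was 0.0629, and for the other 7 members it was 0.275 or more. The difference of sf3a3 among mutants, for one, was not detectable (adjusted p = 0.307).

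The study set regeneration mutants (smn1, gemin3, gemin5) against non-regeneration mutants (gemin2, gemin4, gemin6, gemin7). The mean log2FC of snrpa1 was higher in the first group by 0.41 ± 0.10 (adjusted p = 0.0644 by edgeR, 0.538% of 24535 genes called), from mean estimates of 0.79 and 0.37. With the replicate block the adjusted p was 0.0299 by edgeR. In the set with the shared control, that block joins libraries that share only a number, and replicate numbers there were not counted as pairs. Without the gemin2 mutants the adjusted p was 0.0384. With 1 replicate number of every group left out it ran from 0.0454 (without replicate 3) to 0.999964 by edgeR. For sf3a2 the difference was 0.29 ± 0.10 (adjusted p = 0.289) and for sf3b2 it was 0.22 ± 0.09 (adjusted p = 0.468). No member was called by the edgeR contrast, 3 had an unadjusted p below 0.05 (8.01% of all genes), and no other tool was run for it. The regeneration mutants are also the ones with controls of their own family, so the class of mutant and the kind of control cannot be told apart in this contrast.

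RSEM also gives each gene a mean transcript length weighted by the estimated share of its isoforms, a readout of isoform use that does not rest on the gene's total. It was tested with limma for the 9 members with more than 1 annotated transcript, and snrpc, with 1, stayed at 917 bases. None of the 63 member and mutant pairs was called (0% of genes in 6 mutants and 1% of 12144 in gemin2 mutants), and 5 pairs had an unadjusted p below 0.05, of which 2 were in smn1 mutants (4.17% of genes), 2 in gemin3 (6.07%) and 1 in gemin4 mutants (5.15%). The snrpa1 transcripts had 1045 to 1049 bases on average in gemin3 mutants and 1020 to 1030 in their wild types (adjusted p = 0.396). The snrpa transcripts had 1256 to 1264 bases in smn1 mutants and 1281 to 1303 in wild types (adjusted p = 0.913).

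For sf3b1 the smn1 mutants had 3266 to 3373 bases against 3140 to 3236 (adjusted p = 1.0). For sf3a3 the gemin3 mutants had 2227 to 2239 bases against 2212 to 2223 (adjusted p = 0.823), and for snrnp70 the gemin4 mutants had 2118 to 2225 against 2011 to 2094 (adjusted p = 0.862). The families differed more widely for snrpa than the genotypes did. The mean length of snrpa was 1017 to 1041 bases in the gemin3 set, 1213 to 1303 in the smn1 and gemin5 sets and 1371 to 1494 in the libraries compared with the shared control, mutant and wild type alike. The gemin3 libraries were the ones read in 150-base rather than 125-base pairs, and the part of read length in these differences was not tested.

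**Figure D4:**
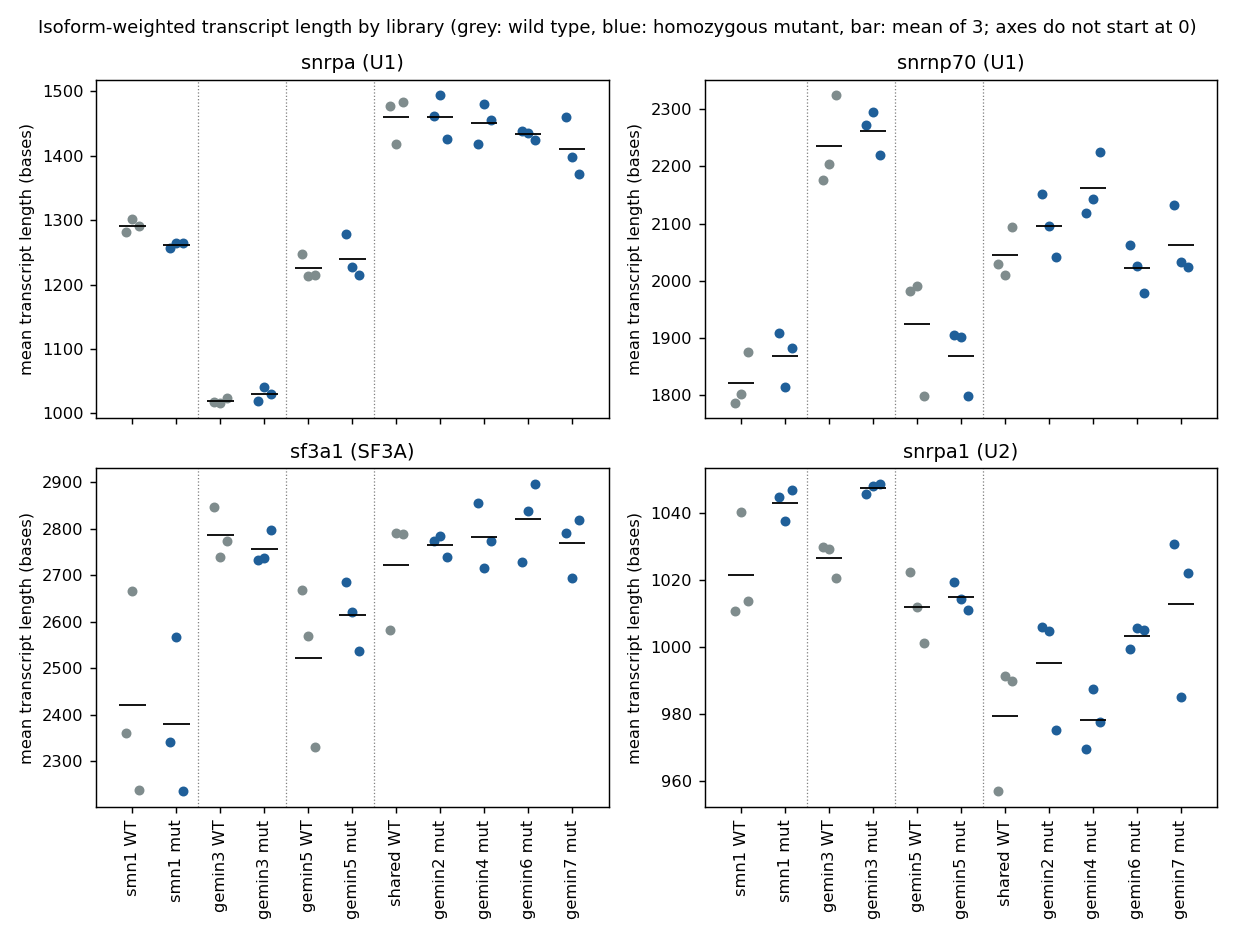
Isoform-weighted mean transcript length in bases of snrpa, snrnp70, sf3a1 and snrpa1 in all 33 libraries, by group; grey points are wild-type and blue points mutant libraries, bars are means of 3, dotted lines part the sets, and the axes do not start at 0. The snrpa points of the gemin3 set lie between 1017 and 1041 bases and those of the set with the shared control between 1371 and 1494.

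Other genes of the same pathway give the surroundings of these changes. Of a list of factors that bind the U1 and U2 particles or complete SF3B, 23 of 27 symbols were found. In each of gemin3, gemin5 and gemin2 mutants 1 of the 23 rose and none fell (0.57%, 0.593% and 2.28% of all genes called higher). That gene was htatsf1, whose human counterpart binds the U2 particle. It was no longer called in gemin3 mutants without any 1 library other than wild-type replicate 3, in gemin5 mutants without wild-type replicate 1 or 2 or mutant replicate 2, and in gemin2 mutants without any 1 library other than mutant replicate 3. Its log2FC was 0.43 ± 0.07 in gemin3 (adjusted p = 0.0473 by edgeR), 0.56 ± 0.07 in gemin5 (0.0174) and 0.56 ± 0.10 in gemin2 mutants (0.0215). In smn1 mutants none was called, 3 had an unadjusted p below 0.05 (5.93% of all genes) and DESeq2 called 2 (0.395% of all genes higher). The replicate block gave 2 in smn1 mutants (0.847% of all genes higher) and raised the count in gemin5 mutants to 4 (4.41%). The 2 in smn1 mutants were htatsf1 and the SF3B gene sf3b3. In gemin5 mutants the SF3B gene sf3b4 and luc7l3 were called beside them. None was called in gemin4, gemin6 or gemin7 mutants, where 1, 1 and 3 had an unadjusted p below 0.05 (5.68%, 3.69% and 8.23% of all genes). DESeq2 called 0, 0 and 1 there (0.231%, 0.0382% and 0.11% of all genes higher). The median log2FC of the list lay between -0.002 and 0.07 in the 7 mutants.

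The Sm core list, the ring proteins that the SMN complex loads, held 7 symbols and 8 gene IDs. In gemin3, gemin5 and gemin2 mutants (0.57%, 0.593% and 2.28% of all genes called higher) 4 of the 8 rose, the same 4 in each (snrpd2, snrpe, snrpg and 1 of the 2 snrpd3 genes). In gemin5 mutants snrpg had a log2FC of 1.02 ± 0.12 (adjusted p = 0.0148 by edgeR) and snrpd3 of 1.15 ± 0.12 (0.00991). In smn1 mutants none was called by edgeR, 6 had an unadjusted p below 0.05 (5.93% of all genes), DESeq2 called 5 (0.395% of all genes higher) and the replicate block gave 6 (0.847%). In gemin4, gemin6 and gemin7 mutants none was called, and 5, 3 and 2 had an unadjusted p below 0.05 (5.68%, 3.69% and 8.23% of all genes). DESeq2 called 2, 0 and 0 there, beside 0.231%, 0.0382% and 0.11% of all genes called higher. The median of the Sm list was 0.81 in smn1, 0.75 in gemin3, 0.75 in gemin5, 0.58 in gemin2, 0.58 in gemin4, 0.23 in gemin6 and 0.31 in gemin7 mutants, in each case above the median of the 10 U1 and U2 members. Without single libraries the Sm count fell to 0 in gemin5 mutants (wild-type replicate 1 or 2, or mutant replicate 2) and to 1 in gemin3 mutants (wild-type replicate 1, or mutant replicate 2 or 3). In gemin2 mutants it fell to at most 1 whichever library was left out, and to 0 without mutant replicate 2.

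Genes of dividing cells were summed as markers of 1 cell state the larvae could differ in. Of 15 gene IDs, 2 fell in gemin2 mutants (rrm2 ENSDARG00000020711 and mcm7). The share of all genes called lower is not given here, so these counts have no background beside them. With the replicate block, 3 fell in gemin5 mutants, namely rrm2 ENSDARG00000078069 (log2FC -0.52, adjusted p = 0.0084 by edgeR), the proliferation marker mki67 (-0.45, 0.0178) and the replication gene mcm7 (-0.26, 0.0238). In smn1 mutants 1 fell with the block, mki67 (-0.42, 0.0457). Without it, none was called in these 2 mutants by edgeR or DESeq2, and 2 and 0 had an unadjusted p below 0.05 by edgeR in gemin5 and smn1 mutants. In gemin4 mutants none was called and 6 had an unadjusted p below 0.05 by edgeR (5.68% of all genes). The median log2FC of the 15 was -0.39 in gemin2, -0.37 in gemin4, -0.14 in smn1, -0.09 in gemin5, -0.08 in gemin3, 0.01 in gemin6 and 0.11 in gemin7 mutants. Their summed level was 105 to 129 TPM in gemin2 mutants and 92.9 to 131 in gemin4 mutants, against 122 to 163 in the shared control. It was 154 to 169 TPM in gemin5 mutants against 147 to 199 in their wild types. The part of dividing cells in the changes of snrpa1, sf3a2 and sf3a3 was not tested.

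**Figure D5:**
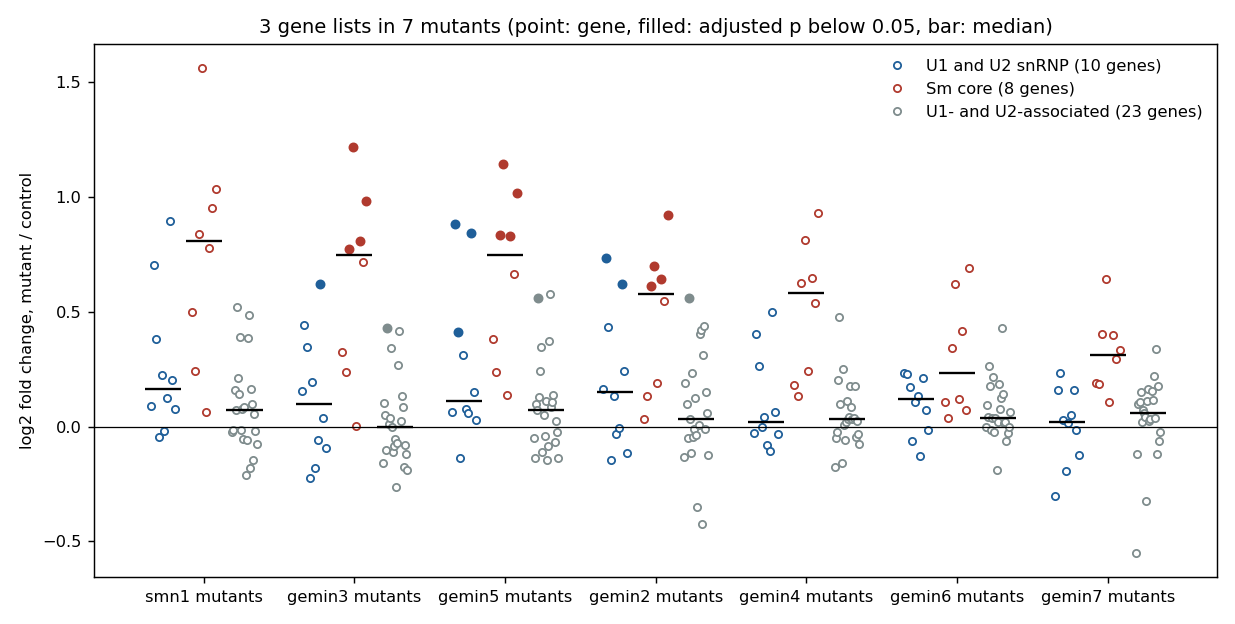
Log2 fold change (mutant over control) of the 10 U1 and U2 snRNP genes, 8 Sm core genes and 23 associated genes in the 7 mutants; each point is a gene, filled where its adjusted p is below 0.05, and the bar is the median of the list. The Sm medians lie between 0.23 and 0.81 and those of the U1 and U2 members between 0.02 and 0.16.

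Among the members, snrpa1 and sf3a2 varied together most closely. Over the 21 mutant libraries, each taken as log2(CPM + 1) minus the mean of its control libraries, Pearson's r was 0.86 between snrpa1 and sf3a2, 0.82 between sf3a2 and sf3a3 and 0.76 between snrpa1 and sf3a3. It was 0.52 between the partners snrpa1 and snrpb2, and 0.02 between sf3a1 and sf3a3. The lowest value, -0.58, was between snrpb2 and sf3b1. These are descriptions, because 12 of the 21 libraries share 1 control mean and libraries of a mutant share their family. The 5 other genes most like the mean of the 10 members by the same measure, among 21702 genes, were mrps33 (r = 0.89), a mitochondrial ribosomal protein gene, crnkl1 (0.86), a splicing factor gene, ssb (0.86), which encodes an RNA-binding protein, xab2 (0.85), a splicing factor gene, and rfc2 (0.85), a replication factor gene. Among the members r with that mean was 0.88 for sf3a2 and 0.13 for snrnp70. Each member is part of the mean, which raises its r, so these values are not comparable with those of the other genes.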

How the data were processed

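RNA-Seq libraries of pooled larvae were processed by the authors: per the labels and methods, reads were aligned with STAR to danRer10 (GRCz10) with Ensembl release 91 without pseudogenes. The submitters' processing notes also name Trimmomatic 0.36, HISAT2 2.2.1.0 and STAR 2.5.4a, without roles. The paper's methods give a later STAR version, and which of them made the deposited values is not known here. The deposited expected counts, TPM values and mean transcript lengths per gene were made by the authors with RSEM. The miRNA libraries were not used here. Symbols were taken from a table of gene IDs, which named 26982 of 34707 IDs.

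Here, expected counts were rounded, scaled by TMM, filtered with filterByExpr and tested in the 6 libraries of each comparison with edgeR 4.0.16 (quasi-likelihood, R 4.3.3), with Benjamini-Hochberg adjustment over all genes and a threshold of 0.05. Standard errors were taken as the size of the log2 fold change over the square root of its F. Differences among mutants were tested in 1 edgeR fit of 33 libraries. Log2 transcript lengths were tested with limma 3.58.1. Alternatives were DESeq2 1.42.0, RLE scaling, no filter, a replicate block, all 33 libraries and leaving out each library. Tested on simulated data for smn1 mutants, the edgeR test recovered 95.0% of 200 genes changed by 1 on the log2 scale, among 22829 genes. The simulation gave every gene the same spread, and no member changed by as much (largest estimate 0.90). Recovery at the sizes of change seen in the members was therefore not measured. No pair of libraries of a group agreed within sampling noise (smallest chi-square per degree of freedom 9.75).

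Replicate numbers, taken from the titles, were counted as pairs where same-numbered libraries deviated together with r above 0.1 in every pair: smn1 (0.57 to 0.70), gemin3 (0.27 to 0.53) and gemin5 (0.40 to 0.71). The main test did not use this pairing in any mutant, and only the test with the replicate block did. Some pairs of unlike number also passed 0.1, namely mutant 1 with wild type 2 and mutant 2 with wild type 1. Their r was 0.23 and 0.15 in gemin3 and 0.30 and 0.29 in gemin5. In these 3 families each mutant library had its highest r with the wild type of its own number. The members and lists were chosen with earlier results of these data known. A fold change and p were printed for member and mutant pairs with an unadjusted p below 0.05, for list genes (at most 5) with an adjusted p below 0.05, and the 5 genes most like the members by r were named. Examples of other pairs were chosen after their values were seen.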

Additional observations from a re-analysis of the deposited data

Results flagged for a closer look

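The changes of 2 members differed among the 7 mutants in the edgeR test of equal log2 fold changes over all 33 libraries. That test was passed by 10.8% of 24535 genes. For snrpa1 the adjusted p was 0.00312, with estimates from 0.16 in gemin7 to 0.90 in smn1 mutants, all above 0. For sf3a2 the adjusted p was 0.000905, with estimates from 0.16 in gemin7 to 0.88 in gemin5 mutants, also all above 0. With a single replicate number of every group left out, the adjusted p by edgeR rose to as much as 0.266 for snrpa1 and 0.235 for sf3a2. The call of sf3a2 was also lost without the gemin2 mutants. The 4 non-regeneration mutants share control libraries, and what sets the mutants apart was not tested.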

How the results depend on the processing

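No direction of the 30 named single-gene results reversed under the alternatives run. Over all 70 member and mutant pairs, 23 changed sign under at least 1 alternative, none of them with an unadjusted p below 0.05 and all with a log2 fold change of at most 0.164 in size. Of 290 alternative values for the 30 results, 241 kept their side of the threshold, 22 passed it newly, 26 lost it and 1 with no test moved (snrpa1 in gemin4 mutants against its own family's wild type, 0.37). The cause was not tested for any of these. Of the 10 members, smn1 mutants had 1 called with no filter, 2 with the replicate block, 2 by DESeq2 and 3 with all 33 libraries. Gemin3 mutants had 3 by DESeq2 and 3 with all 33 libraries, and gemin4 mutants 1 with all 33 libraries. The contrast of regeneration with non-regeneration mutants called 1 with the replicate block and 1 without gemin2 mutants, and the test of differences among mutants 1 without gemin2 mutants. Apart from the replicate block and DESeq2 in smn1 mutants, the share of all genes called is not given for these fits. Those counts therefore have no background beside them. Same-numbered libraries of the gemin2, gemin4, gemin6 and gemin7 comparisons share only a number (r -0.25 to 0.16, -0.14 to 0.39, -0.01 to 0.24 and -0.28 to 0.01), and the replicate block took the member count of gemin2 mutants from 2 to 1 (snrpa1, adjusted p = 0.0663 by edgeR) and called 1 gene of dividing cells higher there.

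The alternatives for the other lists were chosen after seeing the data. Of the associated genes, smn1 mutants had 2 called with each of the replicate block, DESeq2 and all 33 libraries; gemin3 mutants 2 by DESeq2; gemin5 mutants 4 with the block, 2 by DESeq2 and 2 with all 33; gemin2 mutants 3 by DESeq2 and 3 with all 33; gemin4 mutants 1 with all 33 and gemin7 mutants 1 by DESeq2. Of the Sm core, smn1 mutants had 2 with no filter, 6 with the block, 5 by DESeq2 and 5 with all 33, and gemin4 mutants 2 by DESeq2 and 1 with all 33. The share of all genes called is not given for the fits with no filter or with all 33 libraries. It is also not given for DESeq2 in gemin3, gemin5 and gemin2 mutants.

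Leaving out 1 library at a time gave 0 to 1 members called in smn1, 0 to 2 in gemin3, 1 to 2 in gemin5 and 0 to 1 in gemin2 mutants, and 0 in the rest. Leaving out 1 replicate number gave 0 to 1 for the contrast and 0 to 2 for the differences among mutants. Associated genes ranged from 0 to 1 in gemin3, gemin5 and gemin2 mutants. Sm core counts were 0 to 1 in smn1, 1 to 5 in gemin3, 0 to 4 in gemin5 and 0 to 1 in gemin2 mutants. The share of all genes called is not given for the fits with libraries left out. Each fit without 1 library estimates the spread from 5 libraries. The fits without 1 replicate number use the remaining libraries of all groups. The member that depth limits most is snrpb2, with as few as 151 counts in a library.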
